A study of Mus musculus with 17 samples.

Results

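Fosb, Fosl1, Fosl2, Jun, Junb, Jund, Batf and Batf3 encode members of the AP-1 family of transcription factors other than Fos. Their 8 loci were read in 17 ATAC-seq peak sets from neurons of the mouse nucleus accumbens, a striatal region that takes part in reward. ATAC-seq marks open DNA through the insertion of sequencing adapters by a transposase. All peaks that overlapped the body of a gene extended by 20 kb on each side were taken, 1081 of 2136179 in the whole series. Peaks of different libraries that shared at least 1 bp were joined, which gave 88 regions, of which 41 were called by at least 2 libraries of 1 group. These 41 of the 147420 such regions of the genome are described here. By gene, 8 regions lay in the window of Fosb, 9 in that of Fosl1, 5 in that of Fosl2, 2 in that of Jun, 6 in that of Junb, 8 in that of Jund, none in that of Batf and 3 in that of Batf3.

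The libraries came from NeuN-positive nuclei, a neuronal fraction, of C57BL/6 mice (C57BL/6J in the methods) aged 52 to 54 days. Cocaine groups had received 10 mg/kg of the drug by intraperitoneal injection 1 hour before, and were set against control mice of the same sex and stage. Controls were given no cocaine and no vehicle injection is described for them, so the drug and the injection cannot be told apart in any comparison. Females were in diestrus, when estrogen is low, or in proestrus, when it is high. Each library pooled 3 animals, and each of the 6 groups had 3 libraries except male cocaine, which had 2. The stage of diestrus cocaine library 2 was read from its title because its stage label is blank. A pool of 3 animals is 1 value, so the spread between libraries is a spread between pools.

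AP-1 is a dimer that binds short DNA motifs. Jun proteins (Jun, Junb, Jund) can pair with each other or with Fos proteins, whereas Fos proteins (Fosb, Fosl1, Fosl2) need a Jun partner. Fosb is best known in the nucleus accumbens for the stable splice form ΔFosB, which accumulates with repeated drug exposure, and Batf and Batf3 are small partners of Jun proteins studied mostly in immune cells. Several of these genes, Fosb, Jun and Junb among them, are immediate early genes that neuronal activity induces within minutes.

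The promoters of Jun, Jund and Fosb are shown first, because the strongest peak of each of the first 2 genes lay on its printed sequence and because many of the differences described below lay around the third. Sequences are mm10 (RefSeq GRCm38.p6), 5′ to 3′, and each run of 300 bases ends 50 bases inside the gene as GENCODE places its 5′ end. Capitals mark exact matches on either strand to the AP-1 motif (TGACTCA or TGAGTCA), the cAMP response element (TGACGTCA), a variant of it that was added after the Jun promoter had been seen (TGACATCA), the CArG box or the Egr site (GCGTGGGCG).
Jun, chr4:95052173-95052472, minus strand: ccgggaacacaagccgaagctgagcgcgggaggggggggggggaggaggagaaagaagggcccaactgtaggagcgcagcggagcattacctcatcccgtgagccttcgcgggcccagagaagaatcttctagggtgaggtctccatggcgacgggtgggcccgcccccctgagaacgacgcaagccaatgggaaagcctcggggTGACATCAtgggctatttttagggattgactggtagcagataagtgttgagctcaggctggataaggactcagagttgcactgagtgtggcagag
Jund, chr8:70698699-70698998, plus strand: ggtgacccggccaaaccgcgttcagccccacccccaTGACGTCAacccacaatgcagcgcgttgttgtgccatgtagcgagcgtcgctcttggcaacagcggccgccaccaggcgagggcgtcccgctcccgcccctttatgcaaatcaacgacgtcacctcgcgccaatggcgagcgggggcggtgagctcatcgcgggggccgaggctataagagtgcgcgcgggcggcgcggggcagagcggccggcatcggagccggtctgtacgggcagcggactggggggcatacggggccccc
Fosb, chr7:19310002-19310301, minus strand: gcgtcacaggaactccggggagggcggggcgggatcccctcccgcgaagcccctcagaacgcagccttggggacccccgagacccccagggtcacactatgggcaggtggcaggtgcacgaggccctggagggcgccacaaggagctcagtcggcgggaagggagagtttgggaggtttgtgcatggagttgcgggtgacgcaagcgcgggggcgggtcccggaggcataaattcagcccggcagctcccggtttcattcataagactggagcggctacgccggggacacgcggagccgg
The Jun promoter held the TGACATCA variant, which 3.62% of 32851 RefSeq promoters of the same length hold. The Jund promoter held a cAMP response element, found in 1.79% of them. The Fosb sequence held none of these letters. The printed Jund and Fosb runs were placed by GENCODE and are not among these RefSeq promoters. The RefSeq promoter of Jund (chr8:70697489-70697788) held none of the motifs. Over all promoters the AP-1 motif was present in 5.20%, the CArG box in 1.63% and the Egr site in 0.612%. A match is a description of letters and not a site shown to be bound.

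Distal sequences are shown for 4 regions, as 100 bp on each side of the strongest summit, on the plus strand. The first pair are the region called only after cocaine in females and the region called mainly in male controls. The others are the strongest regions in which the AP-1 motif lay within 100 bp of the summit.
Jun, downstream, chr4:95037642-95037842: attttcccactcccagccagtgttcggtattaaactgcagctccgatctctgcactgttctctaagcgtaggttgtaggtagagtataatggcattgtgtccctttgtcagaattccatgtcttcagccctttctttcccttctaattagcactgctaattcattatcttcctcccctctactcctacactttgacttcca
Batf3, upstream, chr1:191093667-191093867: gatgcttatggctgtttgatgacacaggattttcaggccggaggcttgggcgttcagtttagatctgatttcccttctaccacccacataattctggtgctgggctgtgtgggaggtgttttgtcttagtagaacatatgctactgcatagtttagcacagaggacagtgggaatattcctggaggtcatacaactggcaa
Jund, upstream, chr8:70684479-70684679: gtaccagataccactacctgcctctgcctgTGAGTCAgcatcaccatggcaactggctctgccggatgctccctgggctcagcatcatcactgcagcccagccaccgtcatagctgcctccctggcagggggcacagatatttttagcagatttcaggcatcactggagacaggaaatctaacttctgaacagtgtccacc
Fosb, upstream, chr7:19327260-19327460: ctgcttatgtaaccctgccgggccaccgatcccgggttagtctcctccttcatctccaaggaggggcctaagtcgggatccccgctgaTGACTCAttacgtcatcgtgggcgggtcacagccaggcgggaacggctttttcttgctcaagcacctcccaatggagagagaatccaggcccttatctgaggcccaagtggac
Of the 41 regions, 7 (17.1%) held the AP-1 motif in this window, against 10.1% of the 147420 kept regions. Of the 7, 3 were neighbours in the window of Jund. None of the 41 held any of the other motifs there.

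Libraries held 75458 to 157005 peaks on chromosomes 1 to 19 and X, with the fewest in both male cocaine libraries (87707 and 75458). The background pileup, recovered from the steps of the fold enrichments, was 6.26 to 9.55 reads and was 8.15 and 7.60 in the male cocaine libraries. At the 5′ ends of marker genes, all 4 neuronal markers (Rbfox3, Snap25, Syt1, Map2) had a peak in 17 libraries, as had 5 of 6 markers of striatal projection neurons. None of the 4 endothelial markers had a peak in any library, and of the 5 microglial markers only P2ry12 had one, in 4 libraries. Of the astrocyte markers, Aqp4 and Aldh1l1 had none, Slc1a3 had a peak in 2 libraries and Gfap in 16. Of the oligodendrocyte genes, Mbp had a peak in 17 libraries at a median fold of 9.53, whereas Mog, Mag and Sox10 each had a peak only in proestrus cocaine library 2. Diestrus cocaine library 1 had the most peaks of all.

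To ask how open the promoters were, the fold enrichment at the summit of the strongest peak that overlapped 1 kb on each side of the 5′ end was read in each library. This start peak is the ratio of the summit pileup to background within 1 library. A start peak was called in 17 of 17 libraries at Jun, Jund, Junb, Fosl2, Fosb and Fosl1, and in 0 of 17 at Batf and Batf3. Jun had the highest median, 60.6 (range 46.1 to 86.9), above 99.7% of the 11271 protein-coding genes with a start peak in every library. Jund followed with 41.9 (30.9 to 51.9), Junb with 22.4 (17.1 to 26.5), Fosl2 with 20.4 (17.4 to 31.1), Fosb with 16.5 (9.99 to 23.9) and Fosl1 with 6.21 (3.10 to 9.38). In each of the 17 libraries Jun was above Jund, Jund above Junb, Fosl2 above Fosb and Fosb above Fosl1. Junb was above Fosl2 in 9 of 17, so these neighbours in the order did not differ beyond their spread. The summit lay at a median of -152 bp from the 5′ end in Jun, -102 bp in Jund and -145 bp in Fosl2, where negative is upstream, but at 1420 bp inside the gene in Fosb. In Junb it moved between sites, as described below. A separate summit within 600 bp upstream of Fosb was called in 15 of 17 libraries, at a fold of 8.27 to 17.3.

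**Figure D1:**
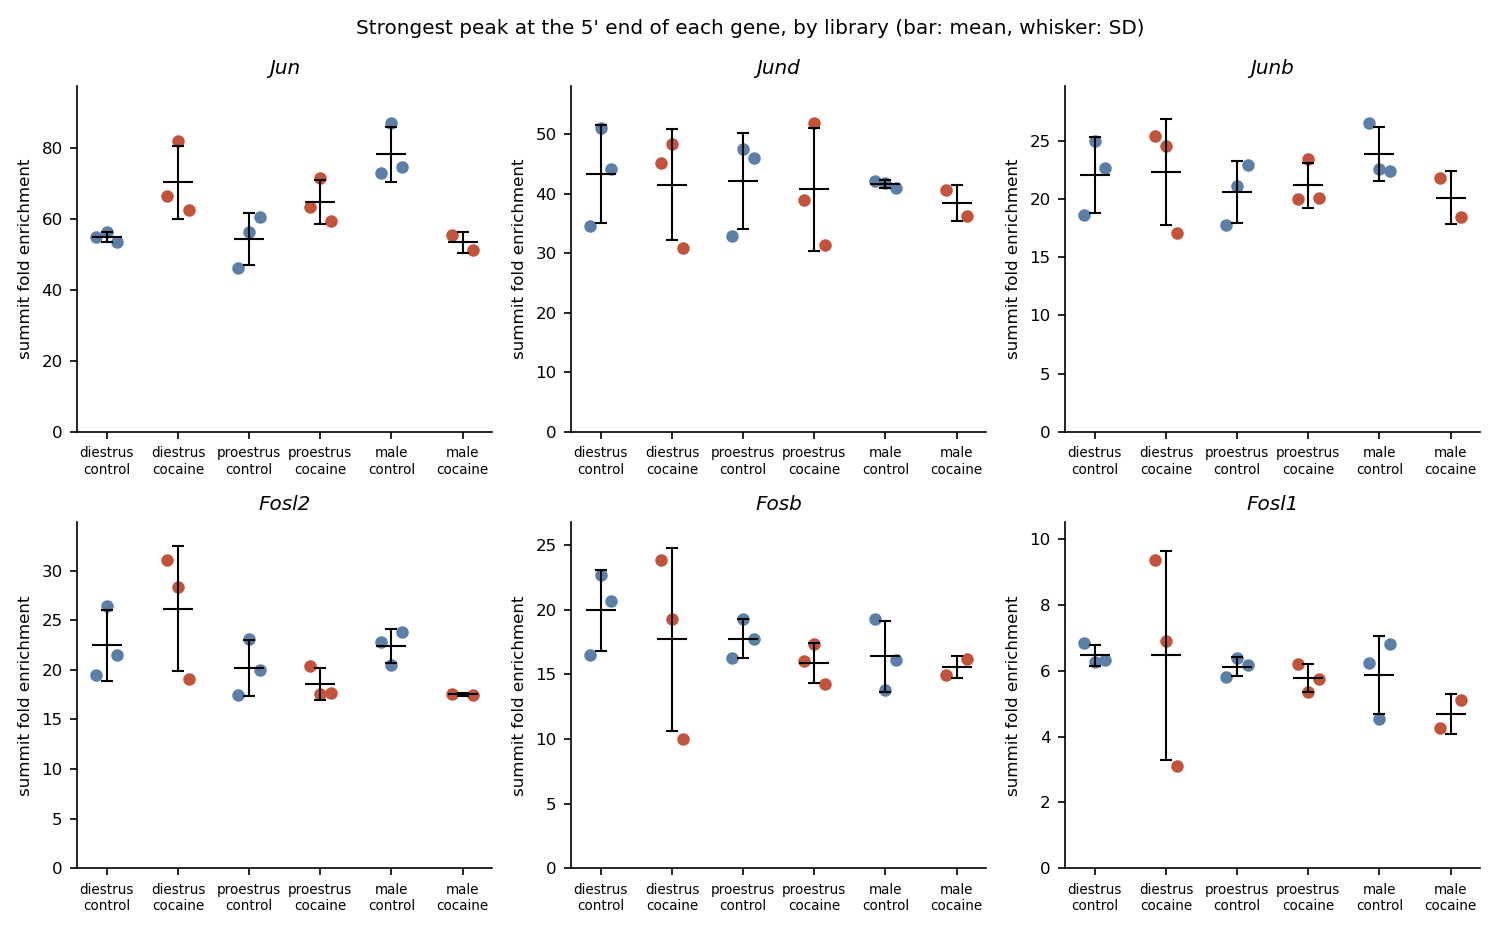
Summit fold enrichment (y axis, linear, from 0) of the strongest peak at the 5′ end of 6 genes in each of the 17 libraries, by group (x axis). Points are libraries (blue control, red cocaine), horizontal bars group means and whiskers SD. Male control points of Jun (72.8 to 86.9) lie above both male cocaine points (55.4 and 51.3), and in diestrus all cocaine points of Jun lie above all control points. Over all 11271 start peaks the median uncentred difference in males was -0.30 log2 units.

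Jun, the prototype of the Jun proteins, had a start peak whose group means were higher after cocaine in females and lower in males. In diestrus controls the fold was 54.9, 56.2 and 53.3, and after cocaine 66.4, 81.9 and 62.5. In proestrus controls it was 46.1, 56.2 and 60.6, and after cocaine 63.2, 71.5 and 59.3. In male controls it was 72.8, 86.9 and 74.6, and after cocaine 55.4 and 51.3. In the raw fold the groups did not overlap in diestrus or in males and overlapped in proestrus. The share of other genes without overlap was not counted. Over all 11271 start peaks the median log2 difference without centring was 0.11 in diestrus and -0.30 in males. In males 13 of these start peaks passed as higher and 1204 as lower (limma). On the centred log2 scale the cocaine minus control difference of the Jun promoter region (chr4:95048444-95054696) was 0.31 ± 0.15 (SE) in diestrus, 0.17 ± 0.15 in proestrus and -0.14 ± 0.17 in males. None passed (limma, adjusted p = 0.169, 0.533 and 0.642). Without diestrus cocaine library 1 the diestrus difference was 0.45, with an adjusted p of 0.0269. The test of males against females, on the difference of the cocaine effects, gave -0.38 (95% interval -0.78 to 0.03) for the region, with an adjusted p of 0.176. For the start peak, tested over 11271 genes, it gave -0.47 (-0.81 to -0.12, adjusted p = 0.0481), a call held in 4 of 17 fits that left out 1 library, with an adjusted p of up to 0.149. Scaling mattered for the region: without centring the male difference was -0.55 (adjusted p = 0.0324) and the difference of effects -0.85 (adjusted p = 0.00515), and quantile normalization gave -0.76 (adjusted p = 0.0295) for the latter. In the same settings the Jun region was higher in male than in female controls, by 0.52 without centring (adjusted p = 0.00945) and 0.49 with quantile normalization (adjusted p = 0.0217). The difference of effects uses those controls, so these values are not separate evidence.

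The downstream region of Jun (chr4:95037571-95038026, 14.5 kb from the 5′ end) divided the female libraries by treatment. It lies in an intron of Gm12703, which the annotation lists as a processed transcript. A peak was called in all 6 female cocaine libraries and in none of the 9 control or 2 male cocaine libraries. The region was thus kept through the female cocaine groups alone. Within 1 stage, 1.16% of all kept regions in diestrus and 2.45% in proestrus were called in every cocaine and no control library. The share that separates both stages likewise was not counted. The fold of the Jun region was 4.27, 4.28 and 2.99 in diestrus cocaine and 2.30, 2.89 and 3.14 in proestrus cocaine, with 22 to 35 reads at the summit. These were weak peaks, with −log10 q from 2.49 to 11.3. Set against all controls, the call in 6 of 8 cocaine libraries had p = 0.00226 (Fisher's exact test, two-sided), which did not pass adjustment over 64304 regions (adjusted p = 0.216). At a threshold of 5 on −log10 q it was called in 2 diestrus cocaine libraries and 1 proestrus cocaine library, and the separation was lost in both stages. With an equal number of peaks per library it was kept in diestrus and lost in proestrus. None of the motifs searched lay anywhere in its 456 bp.

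The length covered by peaks in the Jun window also divided the females. It was 4.54, 4.39 and 4.13 kb in diestrus controls and 5.19, 5.92 and 5.84 kb after cocaine. In proestrus it was 3.97, 4.08 and 4.67 kb in controls and 5.62, 5.92 and 5.66 kb after cocaine. In males it was 4.32, 5.05 and 5.11 kb in controls and 4.08 and 3.91 kb after cocaine. Over the whole genome, male cocaine libraries covered 50.7 and 42.2 Mb and male controls 80.9 to 97.2 Mb, so less was covered in males everywhere. In females the genome totals of cocaine and control libraries overlapped in each stage. Within the promoter region alone the 3 proestrus cocaine libraries covered 5.36 to 5.59 kb and the 3 controls 3.88 to 4.67 kb. These lengths were described and not tested, and the share of other windows that separate likewise was not counted.

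Jund, which is expressed in many cells without stimulation, had a start peak of 34.6, 51.0 and 44.1 in diestrus controls and 45.2, 48.4 and 30.9 after cocaine. In proestrus the fold was 32.9, 47.6 and 46.0 in controls and 39.0, 51.9 and 31.3 after cocaine, and in males 42.2, 41.9 and 40.9 in controls and 40.6 and 36.3 after cocaine. Cocaine and control overlapped in females and were apart in males by less than the spread of the female groups. The share of other genes that were apart in males was not counted. The start peak difference between cocaine and control was -0.18 ± 0.11 (SE) in diestrus, -0.10 ± 0.11 in proestrus and 0.18 ± 0.13 in males on the centred log2 scale, and none passed (limma, adjusted p = 0.24, 0.606 and 0.436).

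Upstream of Jund stood a cluster of regions with the AP-1 motif. The strongest, at -14.4 kb (chr8:70683173-70685472), was called in every library, at a fold of 8.13 to 22.7. Its cocaine minus control difference was -0.17 ± 0.19 in diestrus, -0.00 ± 0.19 in proestrus and -0.02 ± 0.21 in males, none past the test. The region at -16.6 kb (chr8:70681341-70683117) was called in 3 of 3 male controls and 0 of 2 male cocaine libraries, and in 10 of 12 female libraries. The region at -12.6 kb (chr8:70686011-70686888) was called in 3 of 3 proestrus controls and in 0 of 3 proestrus cocaine libraries, and nowhere above a fold of 3.36.

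Junb, an immediate early gene and a frequent partner of Fos proteins, had a start peak with overlapping groups in females. The fold was 18.6, 25.0 and 22.6 in diestrus controls and 25.4, 24.5 and 17.1 after cocaine. It was 17.7, 21.1 and 22.9 in proestrus controls and 20.03, 23.4 and 20.1 after cocaine. In male controls it was 26.5, 22.6 and 22.4, and after cocaine 21.8 and 18.5. The male groups did not overlap, and the share of other genes without overlap in males was not counted. Differences of the start peak were -0.11 ± 0.09 (SE) in diestrus, 0.00 ± 0.09 in proestrus and 0.06 ± 0.11 in males, and none passed (limma, adjusted p = 0.392, 0.987 and 0.778). The strongest peak was not at the same site in every library, however. Its summit lay within 300 bp of the 5′ end in 8 libraries and at -1276 to -1330 bp, or at 2110 and 2176 bp, in the other 9. All 3 diestrus controls and 2 of 3 diestrus cocaine libraries had it at the first of these farther sites, while both libraries at 2110 and 2176 bp were proestrus controls. The Junb values therefore compare nearby sites and not a single one. The merged region around Junb (chr8:84964878-84993342) was 28.5 kb long, and its highest summit lay at -7.39 kb, outside Junb, so neither measure followed the Junb promoter alone.

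Outside the promoter, 2 weak regions near Junb, both over Rnaseh2a, separated controls from cocaine, the first in proestrus only and the second in males only. The region 15.6 kb downstream (chr8:84962421-84963272) was called in the 3 proestrus controls and in no other library, at a fold of 2.56 to 3.06. The region at 21.8 kb (chr8:84956742-84957180) was called in 3 of 3 male controls, 1 proestrus control and no cocaine library. The distal region of this window called most often, at 14.5 kb (chr8:84963830-84964684), had a peak in 5 of 9 control and 2 of 8 cocaine libraries.

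Fosb had 5 regions called in every library, at -17.3, -10.0, 1.42, 8.84 and 27.4 kb from its 5′ end. Their fold ranged from 5.37 to 23.9. At the start peak, whose summit lies in an exon of Fosb, the fold was 16.5, 22.7 and 20.7 in diestrus controls and 23.9, 19.2 and 9.99 after cocaine. In proestrus it was 16.3, 19.3 and 17.7 in controls and 16.02, 17.3 and 14.2 after cocaine, and in males 19.2, 13.8 and 16.1 in controls and 14.98 and 16.2 after cocaine. Cocaine and control overlapped in each sex and stage, and the start peak difference was -0.37 ± 0.15 (SE), -0.20 ± 0.15 and 0.24 ± 0.16 in diestrus, proestrus and males (limma, adjusted p = 0.0785, 0.415 and 0.422).

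In male controls all 5 Fosb regions were lower than in female controls once libraries were centred. The differences were -0.64 ± 0.15, -0.41 ± 0.14, -0.47 ± 0.14, -0.64 ± 0.15 and -0.65 ± 0.16 (SE) in the order given above, with adjusted p-values of 0.00314, 0.0382, 0.0179, 0.0034 and 0.00431 (limma). These 5 regions are neighbours at 1 locus, and 24.3% of all 36847 regions passed the same test. The centred log2 value of the 8.84 kb region (chr7:19295286-19304742) was 3.09, 2.90 and 2.75 in male controls, below all 6 female controls (3.37 to 3.85). Without centring the 5 differences ranged from -0.39 to -0.15 and none passed (adjusted p from 0.124 to 0.579). Each held under quantile normalization and under centring within bins of GC content. The -17.3 and 8.84 kb regions passed in all 17 fits that left out 1 library. The 27.4 kb region did not pass without male control library 2 (adjusted p = 0.0813) and the 1.42 kb region without male control library 2 or 3 (up to 0.133). The -10.0 kb region did not pass without library 2 or 3 of any of the 3 control groups (up to 0.209).

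After cocaine the distal Fosb region at -10.0 kb (chr7:19317759-19324713, intergenic) rose in males on the centred scale. Its centred log2 value was 3.68, 3.33 and 3.52 in male controls and 4.29 and 4.09 after cocaine, a difference of 0.68 ± 0.18 (SE, adjusted p = 0.02, limma). In the raw fold the groups overlapped, at 15.6, 11.3 and 13.1 in controls and 17.5 and 14.5 after cocaine. Without centring the difference was 0.27 (adjusted p = 0.38), and leaving out male cocaine library 1 or 2 or male control library 2 or 3 ended the call, with an adjusted p of up to 0.216. In females the same region differed by 0.05 ± 0.16 in diestrus and -0.23 ± 0.16 in proestrus. The direct test of males against females gave 0.77 (95% interval 0.32 to 1.22, adjusted p = 0.0196) for this region, 0.77 (0.30 to 1.25, adjusted p = 0.0253) at 8.84 kb and 0.88 (0.37 to 1.38, adjusted p = 0.0185) at 27.4 kb. Of all 36847 regions, 15.9% passed this test and 8.51% passed that of cocaine against control in males. Without centring the differences of effects at these Fosb regions were 0.30, 0.30 and 0.40, and none passed. None passed without male cocaine library 1 or male control library 2 either (adjusted p of up to 0.185). The regions at 1.42 and -17.3 kb missed the threshold in this test (0.0502 and 0.0522), and without diestrus cocaine library 1 they were at 0.0141 and 0.0366. This test and the comparison of control groups share the control libraries, so they are not separate evidence.

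In proestrus peaks covered less of the Fosb window after cocaine. Peaks of regions that overlapped the 47.4 kb window, counted in full where they reached past it, covered 21.7, 24.6 and 27.4 kb in controls. After cocaine they covered 10.6, 12.8 and 11.7 kb, and the groups did not overlap. The share of other windows that separate likewise was not counted. Regions rich in GC over the whole genome were also called less often in proestrus after cocaine, as given below. In diestrus the lengths were 15.3, 23.5 and 21.8 kb in controls and 24.7, 11.6 and 7.76 kb after cocaine, where library 1 alone was as long as the controls. At 27.4 kb (chr7:19281250-19283983, at the start of Rtn2) the fold was 7.39, 11.0 and 10.8 in proestrus controls and 6.01, 6.95 and 7.02 after cocaine. This difference, -0.62 ± 0.18 (SE), was the largest in proestrus among the tested regions of the windows and missed the threshold (limma, adjusted p = 0.0624), while separate fits for each sex and stage gave 0.0492. Without diestrus cocaine library 1 it was 0.0394, but no region passed in proestrus when any single proestrus library was left out. In diestrus the same region differed by -0.49 ± 0.18 (SE, limma, adjusted p = 0.0815). The difference between the proestrus and diestrus effects was -0.12 (adjusted p = 0.96). In proestrus the covered length was also lower after cocaine at Junb and Jund, at 26.2 to 28.5 kb in controls and 19.8 to 19.9 kb after cocaine at Junb, and 13.6 to 18.6 kb and 11.4 to 12.02 kb at Jund.

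**Figure D2:**
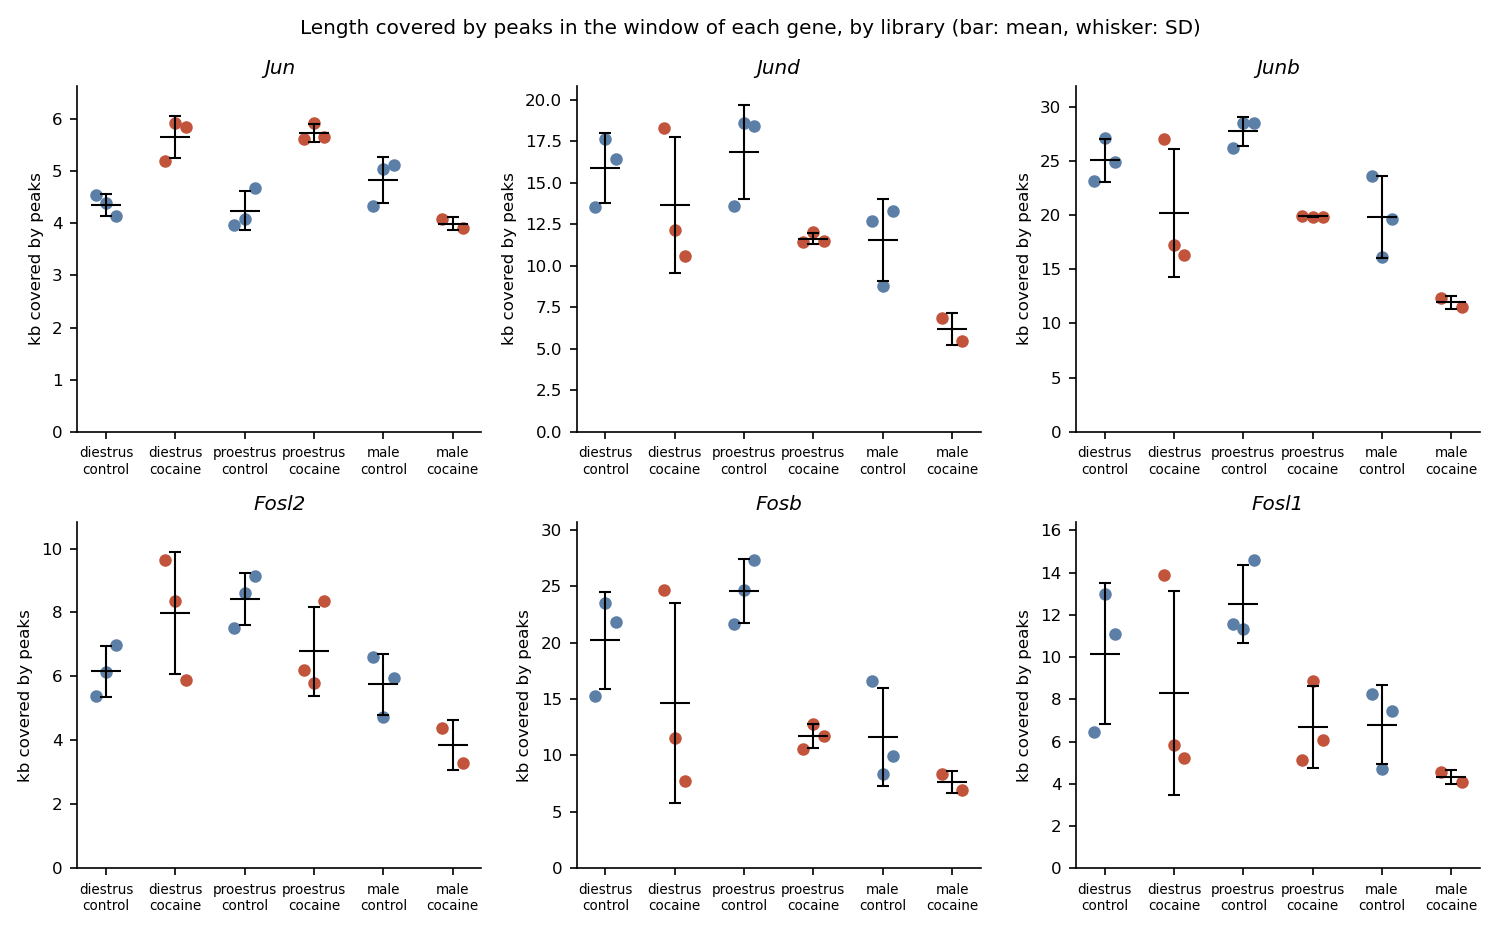
Length covered by peaks (y axis, kb, from 0) in the window of 6 genes in each library, by group (x axis). Regions that overlap a window are counted in full, also where they reach past it. Points are libraries (blue control, red cocaine), horizontal bars means and whiskers SD. At Jun the female cocaine points (5.19 to 5.92 kb) lie above all female controls (3.97 to 4.67 kb), whereas at Fosb the proestrus cocaine points (10.6 to 12.8 kb) lie below the proestrus controls (21.7 to 27.4 kb). The share of other windows that separate likewise was not counted.

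Over all windows, the number of the 41 regions called was 29, 32 and 36 in proestrus controls and 22, 23 and 21 in proestrus cocaine libraries. The share of all kept regions called by the same libraries was 51.6, 51.7 and 56.2% in controls and 59.4, 53.5 and 57.7% after cocaine, and these groups overlapped. The windows are rich in GC, with a median of 52.3% per region against 44.4% over all kept regions. Of all kept regions with a GC content of at least 55%, proestrus controls called 67.2, 72.0 and 76.8% and proestrus cocaine libraries 58.0, 65.8 and 55.1%. GC content thus moved with the calls in the windows, and its part in them was not tested. In diestrus, 23, 31 and 29 regions were called in controls and 34, 24 and 23 after cocaine, where the shares of all kept regions were 56.0, 61.2 and 64.2% and 66.1, 52.9 and 45.6%. In males 29, 22 and 26 regions were called in controls and 19 and 17 after cocaine, and the shares over the genome fell likewise, from 69.6, 64.6 and 70.7% to 42.0 and 36.6%.

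**Figure D3:**
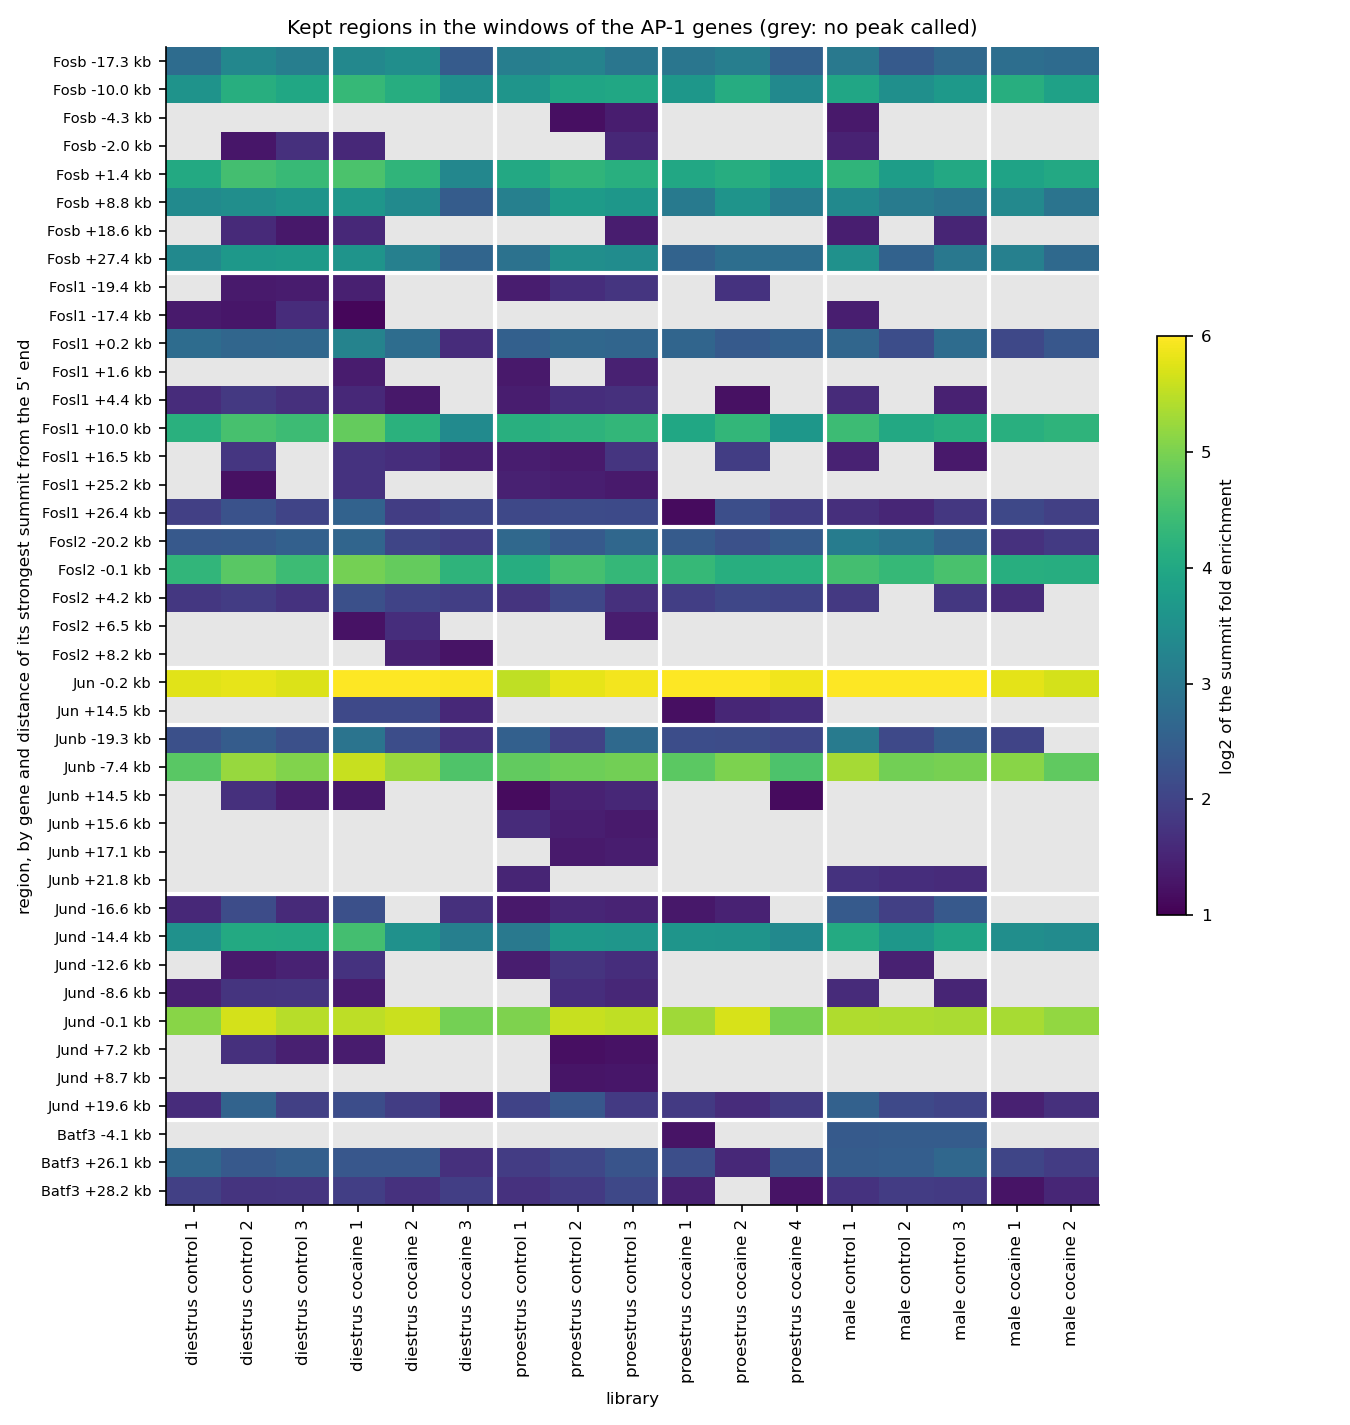
Log2 summit fold enrichment (colour) of the 41 regions (rows, by gene and distance in kb of the strongest summit from the 5′ end) in the 17 libraries (columns, by group). Grey is no called peak, and values of 6 and above share 1 colour. The Jun row at 14.5 kb is filled in the 6 female cocaine libraries, and the Batf3 row at -4.1 kb in the 3 male controls and proestrus cocaine library 1.

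Fosl2 (Fra-2), a late partner of Jun proteins, had a distal region that fell after cocaine in males. The distal region at -20.2 kb (chr5:32115316-32115986, intergenic) had a fold of 8.54, 7.44 and 6.04 in male controls and 3.28 and 3.60 in male cocaine libraries. The male cocaine libraries were the 2 lowest of the 17. The difference was -0.67 ± 0.18 (SE) on the centred log2 scale (adjusted p = 0.0163, limma) and -1.08 without centring (adjusted p = 0.000374). Leaving out male cocaine library 1 or 2 or male control library 1 or 2 ended the call (adjusted p of up to 0.204). In females the difference was -0.29 ± 0.16 in diestrus and -0.31 ± 0.16 in proestrus, neither past the test, and the test of males against females gave -0.37 (95% interval -0.80 to 0.06, adjusted p = 0.21).

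The Fosl2 start peak was 19.5, 26.5 and 21.5 in diestrus controls and 31.1, 28.3 and 19.1 after cocaine. It was 17.4, 23.1 and 19.999 in proestrus controls and 20.4, 17.5 and 17.7 after cocaine. In males it was 22.8, 20.5 and 23.8 in controls and 17.6 and 17.4 after cocaine. Male cocaine lay below male controls in the raw fold. The share of other genes that separate likewise was not counted. Over all 11271 start peaks the uncentred median difference in males was -0.30, with 13 passing as higher and 1204 as lower. On the centred scale the difference in males was -0.05 ± 0.14 (SE) and did not pass (limma, adjusted p = 0.876). An intronic region at 8.25 kb (chr5:32143823-32144299) was called in diestrus cocaine libraries 2 and 3 and nowhere else.

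Fosl1 (Fra-1), which is low in most unstimulated cells, had the weakest start peak of the 6 genes. Its fold was 6.84, 6.25 and 6.33 in diestrus controls and 9.38, 6.92 and 3.10 after cocaine. It was 5.81, 6.38 and 6.16 in proestrus controls and 6.21, 5.35 and 5.76 after cocaine. In males it was 6.25, 4.54 and 6.81 in controls and 4.26 and 5.11 after cocaine. The groups overlapped in each sex and stage, and the differences, -0.26 ± 0.21 (SE), -0.13 ± 0.21 and -0.00 ± 0.24, did not pass (limma, adjusted p = 0.375, 0.748 and 0.996).

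Of the other regions of the Fosl1 window, the region at 26.4 kb (chr19:5473634-5476535) overlaps the start of Efemp2. Its centred log2 value was 1.39, 1.36 and 1.62 in male controls and 2.25 and 2.17 after cocaine. The difference was 0.75 ± 0.22 (SE, adjusted p = 0.03, limma), 0.34 without centring (adjusted p = 0.255), and was no longer called without male cocaine library 1 or 2 or male control library 1 or 2 (adjusted p of up to 0.202). Male controls were below female controls there (-0.68 ± 0.17, adjusted p = 0.00461, limma, and uncentred adjusted p = 0.0718). Of all 36847 regions, 15.9% passed the test of males against females. At 26.4 kb it gave 0.95 ± 0.26 (adjusted p = 0.0164), and 0.74 ± 0.23 (adjusted p = 0.0329) at the region around Ccdc85b at 9.97 kb (chr19:5454769-5462085). Neither passed without centring or without male cocaine library 1, and the second did not pass under centring within bins of GC content (adjusted p = 0.0685). A region at 25.2 kb (chr19:5472350-5472977) was called in 3 of 3 proestrus controls, at a fold of 2.75, 2.67 and 2.56, and in 0 of 3 proestrus cocaine libraries. It was also called in diestrus control library 2 and diestrus cocaine library 1, at 2.34 and 3.32. Within Fosl1 the distal region called most often, in an intron at 4.36 kb (chr19:5449846-5454751), had a peak in 8 of 9 controls and 3 of 8 cocaine libraries (Fisher's exact test, p = 0.0498, adjusted p = 0.382).

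Batf and Batf3 had no called peak at their starts. The 62.4 kb window of Batf held no peak in any of 17 libraries, and it lay in a stretch of 82.3 kb without a kept region (from chromosome 12, 85663330, to 85745670). Batf3 had 3 distal regions. The region at 26.1 kb (chr1:191123415-191124274), with the AP-1 motif, was called in 17 of 17 libraries at a fold of 2.99 to 6.37. Its difference was -0.43 ± 0.17 (SE) in diestrus, -0.13 ± 0.17 in proestrus and -0.16 ± 0.20 in males (limma, adjusted p = 0.106, 0.698 and 0.654). Without proestrus cocaine library 2 the adjusted p in diestrus was 0.0461.

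The Batf3 region at -4.08 kb (chr1:191093513-191094020, intergenic) was the strongest of the separated regions in males. Its fold was 5.35, 5.51 and 5.49 in the 3 male controls, with 39 to 49 reads at the summit. It was called in neither male cocaine library and, among 12 female libraries, only in proestrus cocaine library 1 at a fold of 2.40. The separation of male controls from male cocaine was kept with peaks of −log10 q of at least 5, with an equal number of peaks per library, with peaks that cover at least 50% of the region and with all merged regions. In these settings, in that order, 18.9%, 9.37%, 23.1% and 8.80% of all regions were lost in males, so such a loss was common.

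To set these calls against the genome, a region was counted as gained if every cocaine library and no control library of a sex and stage had called it, and as lost in the converse case. In diestrus 1 of 41 regions was gained, where 1.16% of all kept regions were, and 0 were lost, where 1.26% were. In proestrus 1 was gained (2.45% of all) and 3 were lost (1.64% of all). In males 0 were gained (1.66% of all) and 3 were lost (16.8% of all). The gained region was the same Jun region in diestrus and proestrus. The regions lost in proestrus were those of Fosl1 at 25.2 kb, Junb at 15.6 kb and Jund at -12.6 kb, and those lost in males were those of Batf3 at -4.08 kb, Junb at 21.8 kb and Jund at -16.6 kb. None of the 3 regions lost in proestrus kept the separation with a stricter peak threshold or an equal number of peaks per library. Read against these backgrounds, the counts rest on 1 to 3 regions each, and in males the share lost was below that of the genome. Without proestrus cocaine library 2, the library with oligodendrocyte peaks, 6 were lost in proestrus (2.49% of all), and without proestrus control library 1 there were 8 (3.77% of all). Without male control library 2, 7 were lost in males (24.7% of all). The part of library differences in these counts was not tested. With 3 libraries against 3, or 2 against 3, no p-value under 0.1 is possible for a region, and none is given.

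Over all libraries, 15 of the 41 regions could be tested for calls after cocaine, and 0 passed Fisher's exact test after adjustment (0.0% of all 64304 regions passed). At an unadjusted p under 0.05, 1 was called more often (3.81% of all) and 4 less often (9.23% of all). The 4 were the regions of Jund at -16.6, -12.6 and -8.59 kb and of Fosl1 at 4.36 kb.

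For the summit fold, 16 regions called in all 17 libraries were tested within a fit over 36847 regions. After cocaine, 0 passed in diestrus (9.4% of all regions did), 0 in proestrus (2.71% of all) and 3 in males (8.51% of all), of which 2 were higher and 1 lower. At an unadjusted p under 0.05 there were 3, 3 and 6 of the 16, where 10608, 7639 and 9003 of all 36847 regions were. The median difference over the 16 regions was -0.18 in diestrus, -0.24 in proestrus and 0.28 in males, where the median over all regions was -0.01, 0.00 and 0.01. Without centring the median over all regions shifted to -0.40 in males, and there the 3 regions that passed were all lower. These were the Fosl2 region at -20.2 kb, the Jun promoter (-0.55, adjusted p = 0.0324) and the Jund region at 19.6 kb (-0.65, adjusted p = 0.0413). Over all regions the split in males was 1139 higher and 1996 lower, and 116 and 12116 without centring. For differences between sexes, stages and their effects, 0 regions passed between proestrus and diestrus controls (0.388% of all) or between their cocaine effects (0.00543% of all). Between male and female controls 6 passed, all lower in males (24.3% of all regions passed), and between male and female cocaine effects 5, all higher in males (15.9% of all). Over all regions these splits were 4547 higher and 4423 lower, and 2822 and 3028. Without centring they were 11453 and 631, and 175 and 13794, and in the windows 1 higher and 0 lower, and 0 and 2. Sex could not be told apart from any difference in preparation between male and female libraries.

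**Figure D4:**
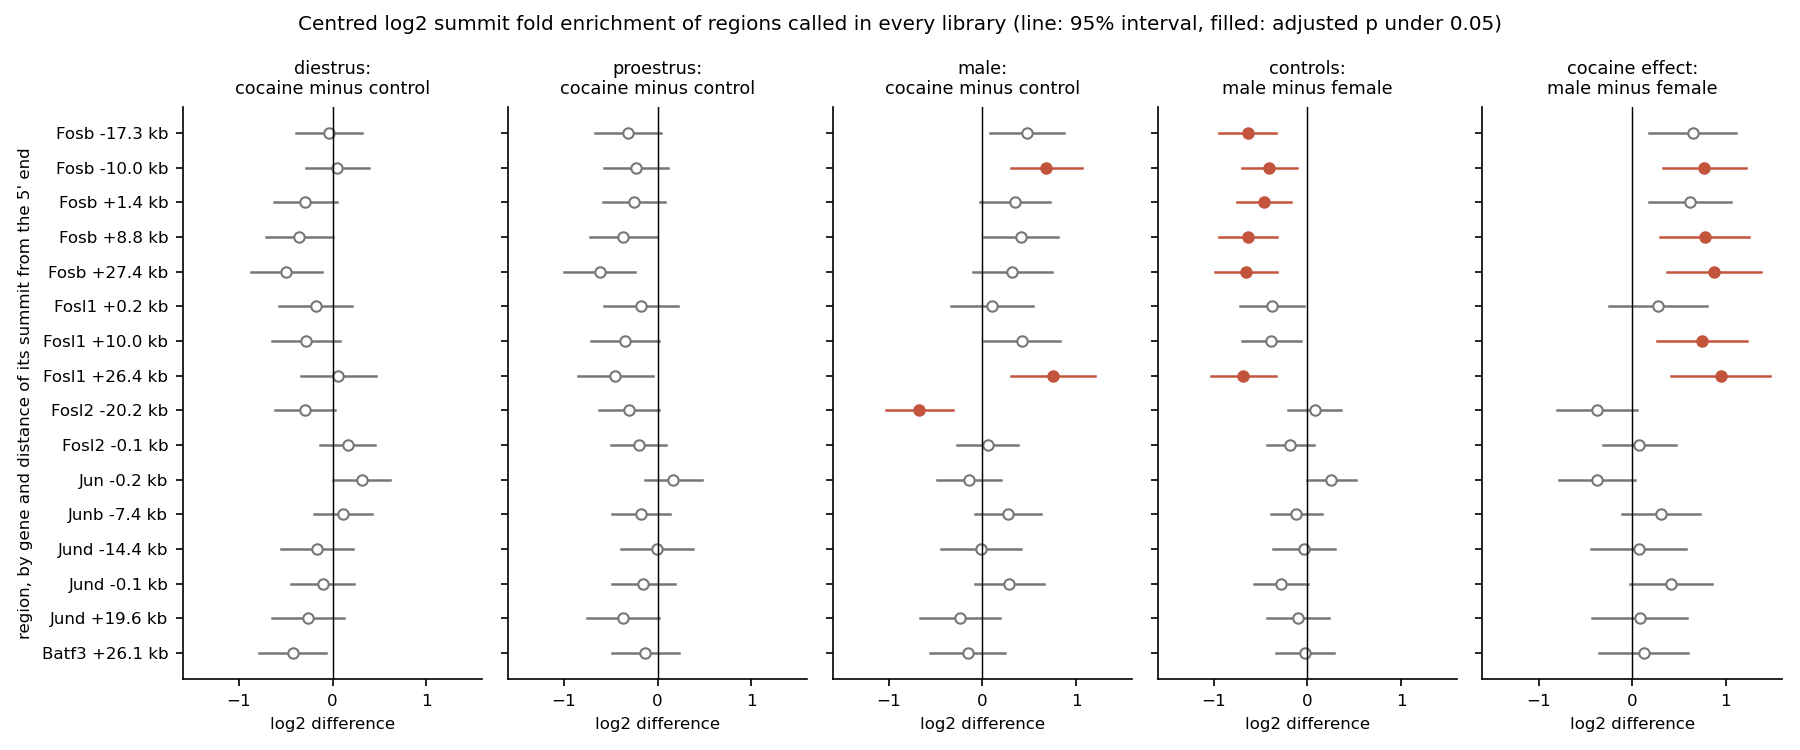
Centred log2 differences in summit fold enrichment (x axis) of the 16 regions called in every library (y axis, by gene and distance in kb of the summit from the 5′ end) for 5 comparisons. Points are estimates, lines 95% intervals, and filled red points passed an adjusted p of 0.05 in limma. All 5 Fosb rows are filled in the comparison of controls, at -0.41 to -0.65, a result that did not pass without centring.

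For start peaks, 0 of 6 genes passed in diestrus (18.9% of 11271 genes did), proestrus (0.0266%) or males (0.532%). Between male and female controls 2 passed (18.9% of all), Fosb at -0.50 ± 0.13 (SE, adjusted p = 0.0153) and Jund at -0.32 ± 0.10 (adjusted p = 0.0361), and neither passed without centring (-0.21 and -0.02). The first was lost without male control library 2 or 3 (adjusted p of up to 0.112), and the second was held in 10 of 17 such fits and missed the threshold under quantile normalization (0.053). Between the cocaine effects of males and females 1 passed (23.1% of all), the Jun start peak described above. Fosb had 0.53 ± 0.19 there (adjusted p = 0.0543).

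Other genes of the pathway were read in the same way, over a list of 21 chosen with earlier results known. It held further AP-1 partners (Fos, Batf2, Jdp2, Atf2, Atf3, Atf7), Maf and Nrf2 relatives, MAP kinases and the factors Srf, Elk1, Elk4 and Creb1, which act on immediate early promoters. Of these, 19 had a start peak in every library. In diestrus 3 of the 19 passed, where 18.9% of all start peaks did. After cocaine 1 rose, Creb1 (0.41, adjusted p = 0.0222, limma), and 2 fell, Mapk3 (-0.32, adjusted p = 0.0436) and Srf (-0.41, adjusted p = 0.037). In proestrus and in males 0 passed. Between the cocaine effects of males and females 4 passed (23.1% of all). Batf2 (0.80, adjusted p = 0.024) and Mapk3 (0.48, adjusted p = 0.0278) were higher in males, and Elk1 (-0.41, adjusted p = 0.0384) and Creb1 (-0.62, adjusted p = 0.0157) lower. Between controls 3 passed (18.9% of all). Maf was higher in males (0.44, adjusted p = 0.044), and Batf2 (-0.67, adjusted p = 0.00762) and Mapk3 (-0.64, adjusted p = 0.0013) lower. These counts are near the background. Without centring, chosen as an alternative after seeing the data, none of the 3 in diestrus passed (adjusted p from 0.0894 to 0.578), and Batf2 and Mapk3 passed in neither of the other comparisons. Maf between controls and Elk1 and Creb1 between effects did pass. The Fos start peak, at a median fold of 11.5, differed by 0.16 in diestrus, 0.35 in proestrus and -0.15 in males, none past the test (adjusted p = 0.334, 0.186 and 0.56). Between effects it was -0.40 (0.072), and -0.79 without centring (0.0285).

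The genes whose start peak varied most like that of Fosb over the 17 libraries, among 11256 compared, were Smarcd1 and Gm17349, which had the same value (Pearson's r = 0.961), and Dpm2 (0.946). For Junb they were Rab27a (0.804), Tuba1b (0.787) and Mef2d (0.775), with the Junb value read at more than 1 site. Libraries share depth and base composition across genes, and these correlations are given as a description.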

How the data were processed

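ATAC-seq was run on sorted NeuN-positive nuclei. The authors trimmed adapters, aligned reads to mm10 with BWA and called peaks with MACS2 per library; versions are not given in the sources used here. Each deposited peak carried a summit fold enrichment (a ratio of pileup to background) and −log10 values of p and q, computed by the authors within that library. The deposited score column, a whole number made from the −log10 q, was not used. DESeq2 and featureCounts were named by the authors; no read counts were used here.

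Peaks on chromosomes 1 to 19 and X of the 17 libraries were merged (1 bp) into 281189 regions, and 147420 called by at least 2 libraries of 1 group were kept. Windows were the GENCODE vM21 gene bodies (same build) with 20 kb on each side. The members, gene lists and tests were chosen with earlier results of these data known. Named were, per gene, the promoter region, the distal region (over 1 kb from any transcript start) called in most libraries, and every region gained, lost or past a test; other regions named were chosen after their values were seen. For Fosb and Junb the 3 genes most alike were named.

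Calls of regions in 4 to 13 libraries were compared by Fisher's exact test, two-sided. Log2 fold enrichment of regions called in all 17 libraries was centred, in each library, on the median of its differences from the region means and tested with limma 3.58.1 (R 4.3.3) in 1 fit over 6 groups. Each test was adjusted by Benjamini-Hochberg over all regions, at 0.05. Since no library totals were used, centring stood in for depth, and a region without a peak was read as not called. Start peaks were added after the data had been seen, because merging had joined neighbouring promoters. On simulated data, 87% of 100 regions changed by 1 log2 unit in diestrus were recovered, 7% of 100 changed by 0.5, and 4 others were called among 36847. Alternatives were other peak thresholds, peak numbers, overlaps, scalings, separate fits, a replicate block and leaving out each library.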

Additional observations from a re-analysis of the deposited data

Results flagged for a closer look

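Each group held 2 or 3 libraries, so no library could be tested as an outlier of its group. The results below were singled out because the cocaine effect differed between males and females in the test of that difference. They were the Fosb window regions with a summit at 27.4 kb (0.88 log2 units, males minus females), 8.84 kb (0.77) and -10.0 kb (0.77), the Fosl1 window regions at 9.97 kb (0.74) and 26.4 kb (0.95), and the Jun start peak (-0.47). The first 5 did not pass without centring, and the Jun start peak was -0.85 there (adjusted p = 0.00654, limma). In that setting the median over all 11271 start peaks was -0.37, with 17 passing as higher and 3221 as lower. The centred call of the Jun start peak held in 4 of 17 fits that left out 1 library. All 6 rest on 2 male cocaine libraries, the ones with the fewest peaks. All 6 calls were lost without male cocaine library 1, a fit that leaves 1 library in that group.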

How the results depend on the processing

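Member counts that changed by more than 1.5 times are given in full. At a threshold of 5 on −log10 q, 0 regions were gained in diestrus and 0 in proestrus, and 1 was lost in proestrus. With an equal number of strongest peaks (75458 per library), 0 were gained and 1 was lost in proestrus. With peaks covering at least 50% of the region, 1 was lost in diestrus. None of the regions of Fosl1, Junb and Jund named as lost in proestrus was lost there in any of these settings. The proestrus losses counted in them were therefore other regions. Leaving out single libraries gave 1 to 2 gained and 0 to 2 lost in diestrus, 3 to 8 lost in proestrus (8 without proestrus control library 1, 6 without proestrus cocaine library 2) and 3 to 7 lost in males (7 without male control library 2). For the summit fold, separate fits called 1 region in proestrus, the Fosb region at 27.4 kb (adjusted p = 0.0492). Same-numbered cocaine and control libraries share a number in their titles, and the correlations of their deviations ran from -0.293 to 0.195. With 2 or 3 libraries per group, these correlations cannot settle whether such libraries also shared a preparation. A fit with this number as a replicate block called 1 in males and 0 between male and female effects, where all regions fell from 3135 to 325 higher and 780 lower in males, and lost the calls of Fosb at -10.0 kb (adjusted p = 0.078) and Fosl1 at 26.4 kb (0.0776) in males and of the Jun start peak between effects (0.195). The block gave 2 higher and 16 lower in proestrus, against 559 and 438, and 436 and 514 in diestrus. Without centring 1 passed between controls and 2 between effects. Start peaks, over 6 genes, gave 0 in males, 2 between controls and 1 between effects. Leaving out single libraries gave 0 to 4 regions in diestrus, 0 to 1 in proestrus, 0 to 3 in males, 3 to 8 between controls and 0 to 7 between effects. The 4 in diestrus came without diestrus cocaine library 1 and were Jun (0.45), Fosb at 1.42 kb (-0.44) and 27.4 kb (-0.61) and Fosl1 at 9.97 kb (-0.52). The cause of these changes was not tested. Fisher's test called 0 members under every alternative run. Promoter differences that passed no test changed sign in 97 of 810 refits. Separate fits over diestrus called 8 regions higher and 25 lower, against 1646 and 1819. Intervals cover counting or library spread only, and a weak peak of a fold near 2 is at the limit of what these libraries call.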
